A study of Drosophila melanogaster with 10 samples.

Results

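The Myc network of Drosophila melanogaster is described here through 7 genes, Myc, Max, Mnt, Mondo, bigmax, pont and rept, which were taken by gene name from the 17676 genes of the count table. All 7 were found in the table, and all 7 passed the filter on low counts in each of 3 comparisons. Myc is a transcription factor of the basic helix-loop-helix leucine zipper (bHLH-Zip) family that drives cell growth, and it binds E-box DNA as a dimer with Max. Mnt, the antagonist, also pairs with Max and represses transcription from the same kind of site. Mondo is a sugar-responsive factor related to Myc that pairs with its own partner, bigmax. Pontin (pont) and Reptin (rept) are related AAA+ ATPases that bind Myc and are shared by chromatin complexes such as Tip60 and INO80.

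Polyadenylated RNA was sequenced from sorted larval type II neuroblast (NB II) lineages of 3 genotypes. All of them carried wor-GAL4, ase-GAL80 and UAS-mCD8::GFP, so that GAL4 acted in neuroblasts that lack ase. Control NB II (3 libraries) expressed no knockdown RNA against either gene, Brat-depleted NB II (brat-KD, 4 libraries) expressed a dsRNA against brat, and the last 3 libraries, labelled brat-KD/Spt5-KD and called the double-labelled libraries from here on, came from larvae that expressed the brat dsRNA together with an siRNA against Spt5. Brat is a translational repressor whose loss turns NB II lineages into tumors, and Spt5 is an elongation factor of RNA polymerase II. The labels give the age of the larvae as 96 h and the methods as 5 d. Cells of dissociated brains were sorted by GFP intensity and by forward and side scatter, which gate on size and granularity, so each library pools many cells. How many GFP-positive descendants of the neuroblasts passed the gate is not given in the sources used here. Nothing states whether the libraries of a genotype came from separate crosses, and p-values measure the spread between these libraries, which may be technical.

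The counts of a library summed to between 2158058 and 9753111. Replicate 1 stood apart in both smaller groups, with Spearman correlations across genes of 0.897 and 0.895 to the other control libraries, which correlated at 0.987, and of 0.801 and 0.801 to the other double-labelled libraries, which correlated at 0.934. The targeted transcript brat fell in Brat-depleted NB II, from 949.6 ± 62.4 to 171.6 ± 36.6 CPM (SD, n = 3 and 4), where CPM is the count scaled by TMM to the size of its library. Spt5 was at 205.3, 115.7 and 583.7 CPM in the double-labelled libraries and at 127.9 to 164.8 CPM in Brat-depleted NB II, so replicates 1 and 3 went against their label and replicate 2 did not (log2 fold change 1.06, SE 0.45, adjusted p = 0.17 in edgeR). The summed CPM of 8 neuroblast markers ranged from 1807 to 2042 in the control, from 3983 to 4455 in Brat-depleted NB II and from 1870 to 2475 in the double-labelled libraries. Its largest part was mira. On average, dpn, wor, pnt, btd and grh were above the control in the double-labelled libraries, and mira, insc and Sp1 below it. The sum of 5 neuron markers ranged from 497.7 to 602.9, from 107.5 to 159.4 and from 97.4 to 183.4, and that of 6 glia markers from 369.5 to 479.2, from 274.3 to 370.4 and from 391.7 to 455.4. The glia sum was mostly Eaat1 and nrv2. In the same order of genotypes, repo averaged 5.84, 4.05 and 1.66 CPM and moody 4.09, 1.77 and 1.27 CPM, and neither passed edgeR's test. The sum of 5 hemocyte markers ranged from 80.5 to 99.2, from 11.5 to 26.8 and from 19.2 to 56.3 CPM, and that of 5 fat body markers from 0 to 44.2, from 0 to 1.98 and from 0 to 26.4 CPM. On average, the hemocyte sum was mostly the matrix genes Pxn and Ppn in the control (66.4 and 23.9 CPM). Its largest part was Ppn in Brat-depleted NB II (17.1 CPM) and in the double-labelled libraries (16.6 CPM). NimC1 was at 0 counts in every library. Hml, a hemocyte gene, was at 0 in the control, at 0 to 2 counts in Brat-depleted NB II and at 16.0, 8.22 and 6.55 CPM in the double-labelled libraries. It passed the filter on low counts only through the double-labelled libraries (13 to 68 counts), so no test is given for it. Pxn, a matrix peroxidase of hemocytes, was at 66.4 ± 30.0 CPM in the control and at 0.81 ± 0.64 CPM in Brat-depleted NB II. It passed the filter only in comparisons with the control, so no test is given for it either. Pxn overlaps 4 other genes, whose reads can be counted for it. Whether these differences in marker levels reflect the makeup of cells, and what part they have in the results on the Myc network, was not tested. In bulk RNA, a change in the share of cells that express a gene and a change in its RNA per cell cannot be told apart.

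The genes lie on 4 chromosome arms of BDGP6. Myc (FBgn0262656) spans X 3373159 to 3391697 on the plus strand, Mnt (FBgn0023215) X 3671801 to 3701672 on the plus strand and Mondo (FBgn0032940) 2L 21286078 to 21310050 on the minus strand. Max (FBgn0017578) spans 3L 19262232 to 19264184 on the minus strand, and rept (FBgn0040075) lies 5120 bases from it, at 3L 19255340 to 19257111 on the plus strand. On 3R, bigmax (FBgn0039509) spans 27287366 to 27288526 on the minus strand and pont (FBgn0040078) 10262123 to 10263899 on the plus strand. Overlaps matter here because the deposited counts ignored strand and included introns. Where a gene lay inside an intron of another and had at least 500 counts, the outer gene had at least 0.9 times its count in 53 of 53 pairs on the same strand and in 130 of 130 pairs on opposite strands. Mnt, pont and rept overlap no other gene. Myc shares bases with CG12535 on the opposite strand (3754 bases, all of them exonic in both) and lies wholly within the span of lncRNA:CR44999 on its own strand (1859 exonic bases in both). Max overlaps exons of Bet1 (206 bases) and of the coincident genes Mettl5 and CG42374 (182 bases), and bigmax overlaps CG3368 by 83 bases. The taste receptor gene Gr39a lies wholly within the span of Mondo, with 0 exonic bases in both, and had between 0 and 18 counts in a library.

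Myc, the activator of the network, was the member with the highest fold in Brat-depleted NB II. Its level was 68.3, 94.99 and 99.1 CPM in the control libraries, 567.4, 389.9, 417.7 and 411.1 CPM in the Brat-depleted libraries, and 117.2, 244.5 and 177.9 CPM in the double-labelled libraries. The 3 groups did not overlap, with the double-labelled libraries between the others. Myc rose 5.08-fold in Brat-depleted NB II over the control (log2 fold change 2.35, SE 0.19, adjusted p = 2.1e-05, quasi-likelihood test of edgeR, adjusted over all genes tested by Benjamini-Hochberg). It fell to 39.9% of the Brat-depleted level in the double-labelled libraries (log2 fold change −1.33, SE 0.27, adjusted p = 0.017 in edgeR). This call was lost without replicate 3 of those libraries (adjusted p = 0.055 in edgeR) and without Brat-depleted replicate 1, the library with the highest Myc (adjusted p = 0.057 in edgeR). Against the control, the double-labelled libraries had 2.07 times as much Myc, which did not pass the threshold (log2 fold change 1.05, SE 0.32, adjusted p = 0.091 in edgeR), and without their replicate 1 it did (1.29, adjusted p = 0.015).

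Beside Myc, CG12535, whose function is not given in the sources used here, was at 284.4, 283.8 and 256.3 CPM in the control, in Brat-depleted NB II at 413.1 to 449.5 CPM, and at 269.1, 167.4 and 168.9 CPM in the double-labelled libraries. It rose in Brat-depleted NB II by 0.62 on the log2 scale (adjusted p = 0.0041 in edgeR) and fell by 1.10 between Brat-depleted NB II and the double-labelled libraries (adjusted p = 0.012). lncRNA:CR44999 had at least the count of Myc in 10 of 10 libraries. CG12535 also lies wholly within the span of lncRNA:CR44999, so its reads can be counted there too. With only the Myc count subtracted, the lncRNA:CR44999 count corresponded to 965.7, 464.0 and 439.6 CPM in the control, in Brat-depleted NB II to between 588.0 and 687.7 CPM, and to 1334, 639.3 and 1163 CPM in the double-labelled libraries. This remainder is thus not the level of the lncRNA alone. How many of the Myc reads belong to these overlapping genes cannot be told from gene counts. Reads of Myc from the shared bases can likewise be counted for CG12535. The changes of CG12535 can therefore not be told apart from those of Myc.

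**Figure D1:**
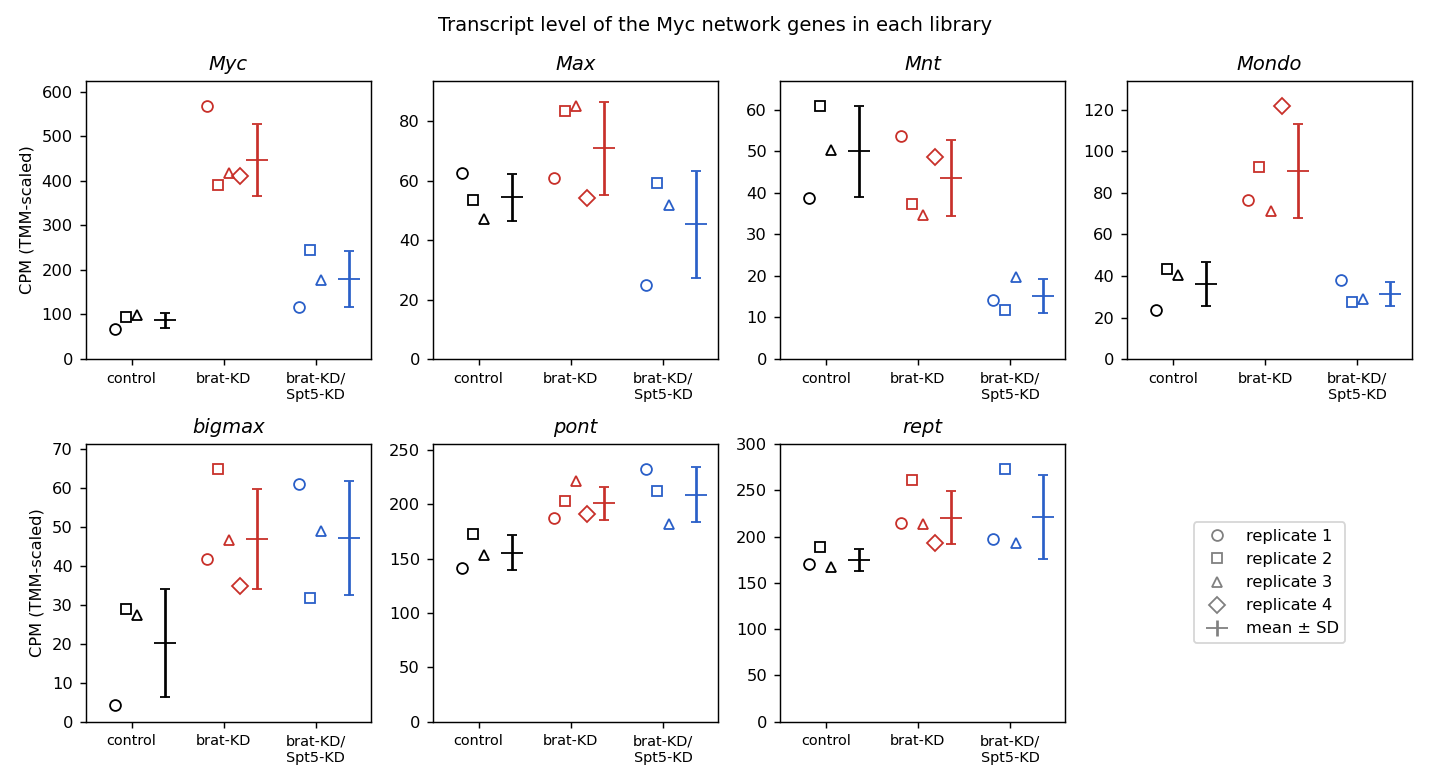
Transcript level (CPM after TMM scaling, vertical axes from 0) of the 7 Myc network genes in each library, with the mean ± SD of each genotype beside the points and replicate numbers as symbols. For Myc the 4 Brat-depleted libraries lie between 389.9 and 567.4 CPM, above all others, and for Mnt the 3 double-labelled libraries lie between 11.7 and 19.7 CPM, below all others.

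Max, the partner with which both Myc and Mnt pair, passed edgeR's test in none of the comparisons. It was at 62.7, 53.3 and 47.1 CPM in the control, at 60.8, 83.6, 85.0 and 54.1 CPM in Brat-depleted NB II and at 25.0, 59.1 and 51.9 CPM in the double-labelled libraries. The groups overlapped in every comparison, and the lowest value was that of double-labelled replicate 1. Its log2 fold changes were 0.37 (SE 0.22) in Brat-depleted NB II over the control, −0.66 (SE 0.34) in the double-labelled libraries against Brat-depleted NB II and −0.26 (SE 0.40) in the same libraries against the control, with adjusted p of 0.25, 0.25 and 0.80 in edgeR. Mettl5, CG42374 and Bet1, whose reads can be shared with Max, passed edgeR's test in none of the comparisons either.

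Mnt, the repressor, differed from Myc in where it moved. Its level was 38.8, 60.8 and 50.2 CPM in the control and 53.8, 37.3, 34.7 and 48.6 CPM in Brat-depleted NB II, and these groups overlapped (log2 fold change −0.20, SE 0.23, adjusted p = 0.56 in edgeR). In the double-labelled libraries it was at 14.1, 11.7 and 19.7 CPM, from 60, 54 and 39 counts. All 3 lay below every other library. Mnt fell to 34.0% of the Brat-depleted level (log2 fold change −1.56, SE 0.36, adjusted p = 0.027 in edgeR), a call that was lost without double-labelled replicate 2 (adjusted p = 0.064) or without Brat-depleted replicate 1, 2, 3 or 4 (0.115, 0.061, 0.064 and 0.090, all in edgeR). Against the control the log2 fold change was −1.73 (SE 0.44) with an adjusted p of 0.057 in edgeR, and without double-labelled replicate 1 it passed (−1.69, adjusted p = 0.026).

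Mondo, the sugar-responsive relative, rose in Brat-depleted NB II and was back near the control in the double-labelled libraries. Its level was 23.8, 43.3 and 40.7 CPM in the control, 76.5, 92.4, 71.2 and 121.7 CPM in Brat-depleted NB II, and 37.9, 27.5 and 28.7 CPM in the double-labelled libraries. Brat-depleted NB II lay above both other groups, which overlapped each other. The rise was 2.50-fold (log2 fold change 1.32, SE 0.25, adjusted p = 0.0032 in edgeR). The fall was to 34.3% of the Brat-depleted level (log2 fold change −1.54, SE 0.27, adjusted p = 0.0099 in edgeR), and leaving out any 1 library ended neither call. Its log2 fold change between the double-labelled libraries and the control was −0.19 (SE 0.42, adjusted p = 0.88 in edgeR).

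Its partner bigmax had 1 library that stood apart. Control replicate 1 was at 4.24 CPM (24 counts, exact 95% interval 2.72 to 6.30 CPM), while control replicates 2 and 3 were at 28.9 and 27.4 CPM. Brat-depleted NB II had 41.7, 64.9, 46.6 and 34.9 CPM and the double-labelled libraries had 61.0, 31.8 and 48.9 CPM. Both groups lay above all control libraries, but the log2 fold changes over the control, 1.22 (SE 0.50) and 1.24 (SE 0.70), had adjusted p of 0.095 and 0.37 in edgeR. Without control replicate 1, bigmax was 0.75 higher on the log2 scale in Brat-depleted NB II and passed the test (adjusted p = 0.037 in edgeR). CG3368, whose end it overlaps, was at 94.8 CPM in control replicate 1 against 112.5 and 126.2 CPM in the other control libraries, and it passed edgeR's test in none of the comparisons. For bigmax the log2 fold change between the double-labelled libraries and Brat-depleted NB II was −0.02 (SE 0.32, adjusted p = 0.98 in edgeR).

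The ATPases pont and rept passed edgeR's test in none of the comparisons (pont passed with DESeq2 between Brat-depleted and control NB II), although their groups separated in both comparisons with the control. For pont the levels were 141.2, 172.9 and 153.0 CPM in the control, 187.5, 203.6, 221.8 and 191.3 CPM in Brat-depleted NB II, and 232.6, 212.2 and 182.0 CPM in the double-labelled libraries. For rept they were 170.2, 188.8 and 166.7 CPM, then 214.2, 260.9, 213.8 and 192.6 CPM, then 197.0, 273.0 and 193.6 CPM in the same order of genotypes. Every library with the brat knockdown was above every control library for both genes. Over the control, pont was 0.36 (SE 0.13, adjusted p = 0.070) and rept 0.32 (SE 0.14, adjusted p = 0.13) higher on the log2 scale in Brat-depleted NB II, and 0.43 (SE 0.20, adjusted p = 0.26) and 0.34 (SE 0.22, adjusted p = 0.45) higher in the double-labelled libraries, all in edgeR. From Brat-depleted NB II to the double-labelled libraries, pont had a log2 fold change of 0.04 (SE 0.16) and rept of −0.01 (SE 0.19).

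Counted together, 2 of the 7 genes rose and 0 fell in Brat-depleted NB II, in a comparison that called 28.1% of all 8785 genes tested (13.8% higher, 14.3% lower). The median log2 fold change of the 7 was 0.37, against −0.02 over all genes. For 5 of the 7 the libraries did not overlap, which held for 38.8% of all genes. Between the double-labelled libraries and Brat-depleted NB II, 3 of the 7 fell and 0 rose where 11.6% of 8750 genes were called (5.91% higher, 5.71% lower), with a median of −0.66 against −0.05. The 3 were also the ones whose libraries did not overlap, which held for 29.4% of all genes. Between the double-labelled libraries and the control, 0 of the 7 passed edgeR's test where 7.29% of 8506 genes did (3.97% higher, 3.32% lower), 2 of the 7 had an unadjusted p under 0.05, and DESeq2 called 2 (Myc and Mnt). Here 5 of the 7 did not overlap, against 34.1% of all genes. Each comparison shares libraries with the other 2, so a rise in one and a fall in the next are not independent.

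**Figure D2:**
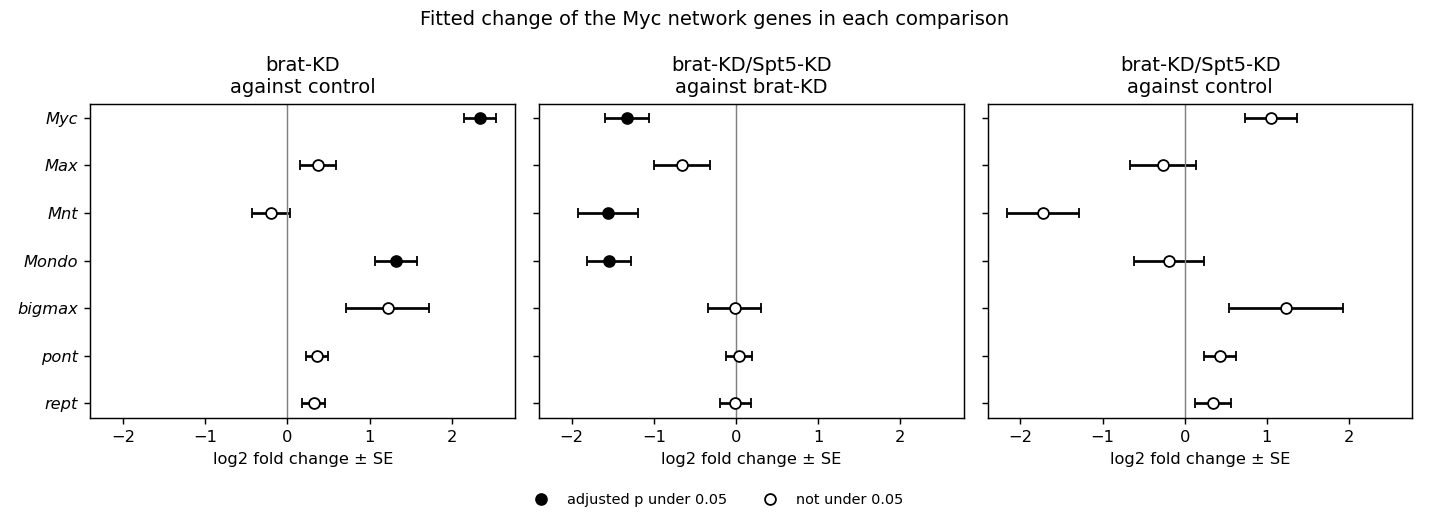
Fitted log2 fold change ± SE (horizontal axes) of the 7 genes in each of the 3 comparisons. Filled points passed an adjusted p of 0.05. Myc (2.35) and Mondo (1.32) passed in the left panel, Mnt (−1.56), Mondo (−1.54) and Myc (−1.33) in the middle panel, and no gene in the right panel.

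Whether Myc moved apart from its partners was asked within each library, as the ratio of the Myc count to the count of another member, which does not depend on library scaling. Of 6 ratios between Brat-depleted and control NB II, all were higher on average in Brat-depleted NB II and 5 did not overlap. All ratios have the Myc count as numerator, so they are not independent and largely repeat the change of Myc itself. The median log2 fold change over all genes was −0.02, so a ratio of Myc to an unchanged gene would be higher too. The share of such ratios over all genes was not computed. Myc to Mnt, activator to antagonist, was 1.76, 1.56 and 1.97 in the control and 10.5, 10.4, 12.01 and 8.44 in Brat-depleted NB II, 5.85 times as high (difference in mean log2 2.55). Myc to Max was 1.09, 1.78 and 2.10 against 9.33, 4.66, 4.91 and 7.58, 3.97 times as high. The ratios to rept and pont were 4.08 and 3.95 times as high. An exact two-sided permutation test gave p = 0.0286 for each of these 4 ratios, the smallest that 3 against 4 libraries allow, and 0.0857 after Benjamini-Hochberg adjustment over the 18 ratio tests, so none passed the adjustment. Myc to Mondo was 2.01 times as high (exact permutation p = 0.057, adjusted 0.147) and Myc to bigmax 1.68 times, with overlap (exact permutation p = 0.343, adjusted 0.411).

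In the double-labelled libraries, where Mnt was low, the Myc to Mnt ratio was 8.24, 20.7 and 8.95. These values overlapped those of Brat-depleted NB II (1.12 times as high, exact permutation p = 0.771) and lay above all control libraries (6.56 times as high, exact permutation p = 0.10, the smallest that 3 against 3 libraries allow, adjusted 0.15). Without double-labelled replicate 2 the difference in mean log2 from Brat-depleted NB II was −0.26 in place of 0.17. The Myc to Mondo ratio, which was 3.09, 8.87 and 6.15, also overlapped that of Brat-depleted NB II (7.41, 4.22, 5.87 and 3.38). Myc to pont fell from 3.03, 1.91, 1.88 and 2.15 in Brat-depleted NB II to 0.504, 1.15 and 0.978, a ratio 0.376 times as high without overlap, and Myc to rept from 2.65, 1.49, 1.95 and 2.13 to 0.595, 0.895 and 0.919, 0.391 times as high (each with exact permutation p = 0.0286, adjusted 0.0857). Myc to Max was 4.68, 4.13 and 3.42, 0.637 times as high as in Brat-depleted NB II, with overlap (exact permutation p = 0.143, adjusted 0.198).

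**Figure D3:**
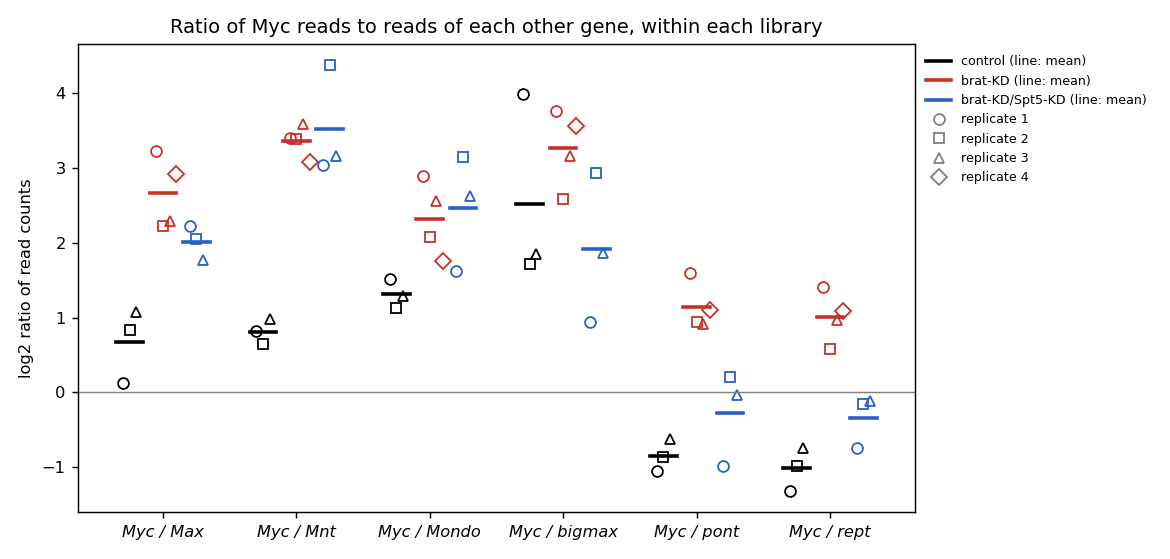
Ratio of the Myc count to the count of each other gene of the network within each library (log2, vertical axis), with a line at the mean of each genotype. Myc to Mnt lies between 1.56 and 1.97 in the control, between 8.44 and 12.01 in Brat-depleted NB II and between 8.24 and 20.7 in the double-labelled libraries before taking the log. The high control value for bigmax is replicate 1, where bigmax had 24 counts.

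Levels between genes were compared as CPM per kb of annotated exon, on which reads from introns and overlapping genes also count. In the control, rept (98.9 ± 6.71, SD, n = 3) and pont (93.9 ± 9.64) were highest and overlapped, followed by Max (42.2 ± 6.08), bigmax (21.1 ± 14.5), Mnt (10.96 ± 2.41), Myc (9.54 ± 1.82) and Mondo (6.95 ± 2.05). From bigmax downward each gene overlapped the next. In Brat-depleted NB II, Max (55.0 ± 12.2, n = 4), bigmax (49.3 ± 13.5) and Myc (48.7 ± 8.88) overlapped in a middle group below rept (124.4 ± 16.3) and pont (121.2 ± 9.30), while Mondo (17.5 ± 4.39) and Mnt (9.57 ± 1.99) were apart from each other and from the rest. In the double-labelled libraries, pont (125.9 ± 15.3, n = 3) and rept (124.8 ± 25.3) were followed by bigmax (49.5 ± 15.4), Max (35.2 ± 14.0) and Myc (19.6 ± 6.94), of which Myc overlapped Max and Max overlapped bigmax. Mondo (6.07 ± 1.10) and Mnt (3.33 ± 0.90) were again lowest and did not overlap. By its mean, Myc was the sixth of 7 in the control and the fifth in both other genotypes. These ranks are not separated. Its range overlapped those of bigmax, Mnt and Mondo in the control, of Max and bigmax in Brat-depleted NB II, and of Max in the double-labelled libraries.

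**Figure D4:**
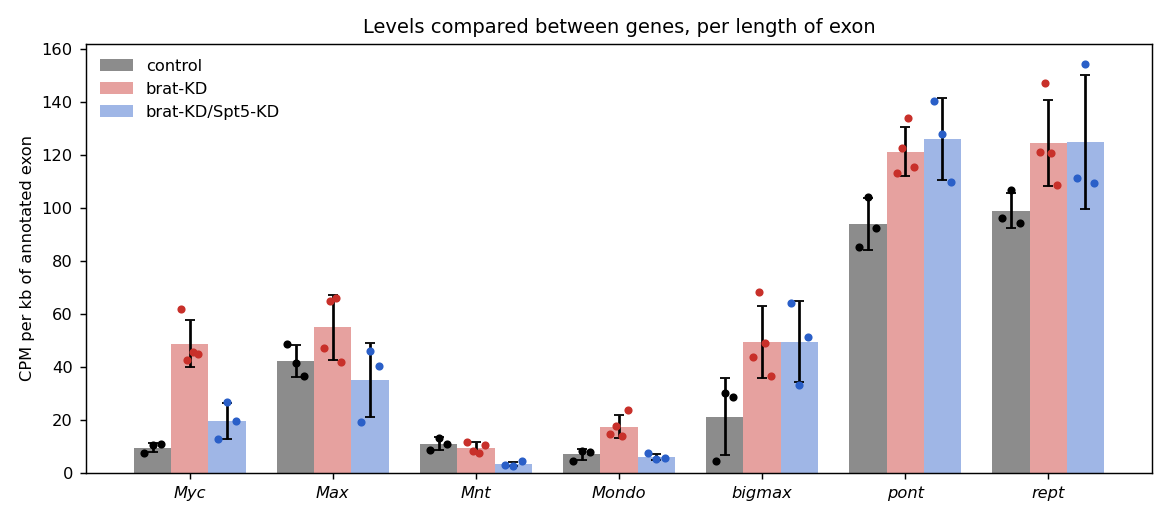
CPM per kb of annotated exon (vertical axis from 0) for the 7 genes in the 3 genotypes. Bars are means, error bars SD, and points single libraries. The bars for rept and pont stand between 93.9 and 125.9, and Myc rises from 9.54 in the control to 48.7 in Brat-depleted NB II.

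The genes whose pattern over the 10 libraries was most like that of Myc lay outside the network. Likeness was the root mean square difference of centred log2 CPM, over the 5599 genes that do not overlap Myc and reach 4 or more in mean log2 CPM. The 5 closest were fru, a BTB zinc finger transcription factor (0.228), tai, a coactivator of the ecdysone receptor (0.253), kz, an RNA helicase (0.289), PsGEF, a guanine nucleotide exchange factor (0.317), and r, the enzyme of the first steps of pyrimidine synthesis (0.326). The closest, fru, was at 23.7 ± 2.73 CPM in the control, 138.2 ± 14.1 CPM in Brat-depleted NB II and 66.4 ± 34.1 CPM in the double-labelled libraries, and r was at 71.7 ± 14.6, 314.4 ± 34.6 and 109.1 ± 11.8 CPM. Of the network, Mondo was nearest to Myc (0.669, with 5.34% of the genes closer), then Max (0.902), rept (0.910), pont (0.925) and bigmax (0.950). Mnt was farthest (1.25), with 66.4% of the genes closer to Myc. The libraries share genotype and depth, so these distances are a description.

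Genes that act with, on or downstream of the network were followed in 7 lists. Among 19 genes of the nucleolus and of RNA polymerase I, known as Myc targets in flies or in other animals, 16 rose and 0 fell in Brat-depleted NB II, where 13.8% of all genes tested rose (median log2 fold change 1.18, against −0.02 over all genes). The largest rises were those of Polr1A, the largest subunit of RNA polymerase I (2.14, SE 0.14, adjusted p = 1.0e-05 in edgeR; 83.1 ± 9.28 CPM in the control, 369.3 ± 15.3 in Brat-depleted NB II), CG5033 (1.91, SE 0.26) and Polr1B, its second subunit (1.74, SE 0.26). In the double-labelled libraries, where Myc was lower than in Brat-depleted NB II, 2 of the 19 fell, against 5.71% of all genes tested (median −0.27, against −0.05 over all genes). They were Non1, a nucleolar GTPase (−1.06, SE 0.23, adjusted p = 0.022 in edgeR), and Nopp140, a nucleolar phosphoprotein (−0.81, SE 0.21, adjusted p = 0.036). That count was 4 without double-labelled replicate 1 and 0 without Brat-depleted replicate 1, 2 or 3. Polr1A was at 374.8 ± 41.0 CPM there, a log2 fold change of 0.00 (SE 0.15). Against the control, 6 of the 19 rose, where 3.97% of all genes tested did, with a median of 0.84 against −0.01. The largest rises were those of Polr1A again (2.18, SE 0.20, adjusted p = 0.0032 in edgeR), pit, an RNA helicase (1.57, SE 0.28), and Ns1, a nucleostemin (1.44, SE 0.29). That count was 14 without double-labelled replicate 1 and 1 without any 1 of the other 5 libraries.

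Among 12 genes of the sugar response that involves Mondo and bigmax, 4 rose and 0 fell in Brat-depleted NB II, where 13.8% of all genes tested rose (median 0.64, against −0.02 over all genes). The number called was 8 without control replicate 1 and 3 without control replicate 2 or 3 or Brat-depleted replicate 1, 2 or 4. It was also 3 with all 3 genotypes in 1 fit and with a block for the replicate number. The largest rises were in Pgd, an enzyme of the pentose phosphate pathway (2.32, SE 0.35, adjusted p = 0.0007 in edgeR; 13.2 ± 6.13 CPM in the control, 66.5 ± 14.0 in Brat-depleted NB II), FASN1, a fatty acid synthase (1.23, SE 0.18), and AcCoAS, an acetyl-CoA synthetase (0.99, SE 0.22). Between the double-labelled libraries and Brat-depleted NB II, where Mondo fell, 0 of the 12 passed edgeR's test (median 0.13), against 11.6% of all genes tested. Of the 12, 1 had an unadjusted p under 0.05 and 1 passed with DESeq2. Against the control, where 3.97% of all genes tested rose, 1 of 11 tested rose, FASN1 (1.56, SE 0.24, adjusted p = 0.013 in edgeR). The number called there was 0 without double-labelled replicate 2 or 3 or control replicate 2 or 3, and 4 with DESeq2 or with all 3 genotypes in 1 fit.

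Of 10 genes known to set Myc abundance, 1 rose and 3 fell in Brat-depleted NB II, 4 calls in 10 where 28.1% of all genes were called. Of these 4, brat is the target of the dsRNA, so its call is no result about the list. Without brat, the share called lies nearer to that over all genes. The gene that rose was ago, an F-box protein that marks Myc protein for degradation (0.55, SE 0.16, adjusted p = 0.028 in edgeR), and those that fell were the target brat (−2.48, SE 0.18), pum, an RNA-binding repressor (−0.51, SE 0.15), and CkIalpha, a casein kinase (−0.42, SE 0.14). Where 5.71% of all genes fell and 5.91% rose, 2 of the 10 fell and 0 rose from Brat-depleted NB II to the double-labelled libraries. They were Psi (−0.97, SE 0.26, adjusted p = 0.044) and hfp (−0.92, SE 0.19, adjusted p = 0.018), RNA-binding proteins that act on Myc transcription as an activator and a repressor. Against the control, hfp (−1.24, SE 0.23) fell, where 3.32% of all genes tested did. The target brat (−2.18, SE 0.34) was also called there, again no result about the list. Without double-labelled replicate 3, Brat-depleted replicate 1 or Brat-depleted replicate 3, 0 of the 10 passed in the comparison of the double-labelled libraries with Brat-depleted NB II. Without double-labelled replicate 3, control replicate 2 or control replicate 3, 0 passed against the control. The 4 calls in Brat-depleted NB II became 1 without control replicate 2 or Brat-depleted replicate 4.

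Among 9 chromatin and elongation partners of Myc, 2 were called in Brat-depleted NB II, where 28.1% of all genes were. Rtf1, a subunit of the Paf1 complex, rose (0.68, SE 0.17, adjusted p = 0.011 in edgeR) and Spt5 fell (−0.53, SE 0.15, adjusted p = 0.023). In the double-labelled libraries 3 of the 9 were lower than in Brat-depleted NB II, against 5.71% of all genes tested. The 3 were ash2, of the H3K4 methyltransferase complexes (−1.02, SE 0.22), Kdm5, the histone demethylase Lid (−0.96, SE 0.18), and Hcf, host cell factor (−0.74, SE 0.17), with adjusted p of 0.021, 0.012 and 0.027 in edgeR. Kdm5 (−0.97, SE 0.23) and Hcf (−0.85, SE 0.20) were also lower than in the control, against 3.32% of all genes tested. In that comparison 0 of the 9 passed without double-labelled replicate 2 or 3 or control replicate 2 or 3. The 3 calls against Brat-depleted NB II became 6 without double-labelled replicate 1. Of 13 further subunits of the Tip60 complex, which shares pont and rept, 2 rose and 2 fell in Brat-depleted NB II, a share near the 28.1% called over all genes, E(Pc) (0.68) and dom (0.57) against MRG15 (−0.87) and Gas41 (−0.85). Only dom, the ATPase Domino, passed between the double-labelled libraries and Brat-depleted NB II (−1.32, SE 0.18, adjusted p = 0.0046 in edgeR), where 11.6% of all genes tested did. The span of dom holds 16 small RNA genes, whose reads can be counted for it. Against the control 0 of the 13 passed in edgeR, where 7.29% of all genes tested did. Of the 13, 2 had an unadjusted p under 0.05 and 2 passed with DESeq2. The counts for this complex were highest, at 6 and 5, without control replicate 1 in the comparison of Brat-depleted and control NB II and without double-labelled replicate 1 in that of the double-labelled libraries with Brat-depleted NB II. They were lowest, at 0, with all 3 genotypes in 1 fit in the former and with a block for the replicate number in the latter. Of 5 genes of the INO80 and R2TP complexes 0 passed in Brat-depleted NB II against the control in edgeR (median −0.25), where 28.1% of all genes tested did. Of the 5, 0 had an unadjusted p under 0.05 there and 0 passed with DESeq2. In both other comparisons, where 5.71% and 3.32% of all genes tested fell, pho fell (−1.15, SE 0.30, and −1.37, SE 0.33). Its calls were lost without any 1 library of the pair of genotypes compared, other than double-labelled replicate 1. Of 4 other bHLH-Zip genes, SREBP, the regulator of lipid synthesis, rose in Brat-depleted NB II (0.98, SE 0.14, adjusted p = 0.0005 in edgeR) and fell from there in the double-labelled libraries (−0.68, SE 0.16). In Brat-depleted NB II crp did not pass (0.05, SE 0.16, adjusted p = 0.87 in edgeR), and from there it fell in the double-labelled libraries (−0.91, SE 0.20). Over all genes tested, 13.8% rose in the former comparison and 5.71% fell in the latter. Without double-labelled replicate 3 or Brat-depleted replicate 1, 3 or 4, 0 of these 4 genes passed in the latter comparison.

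**Figure D5:**
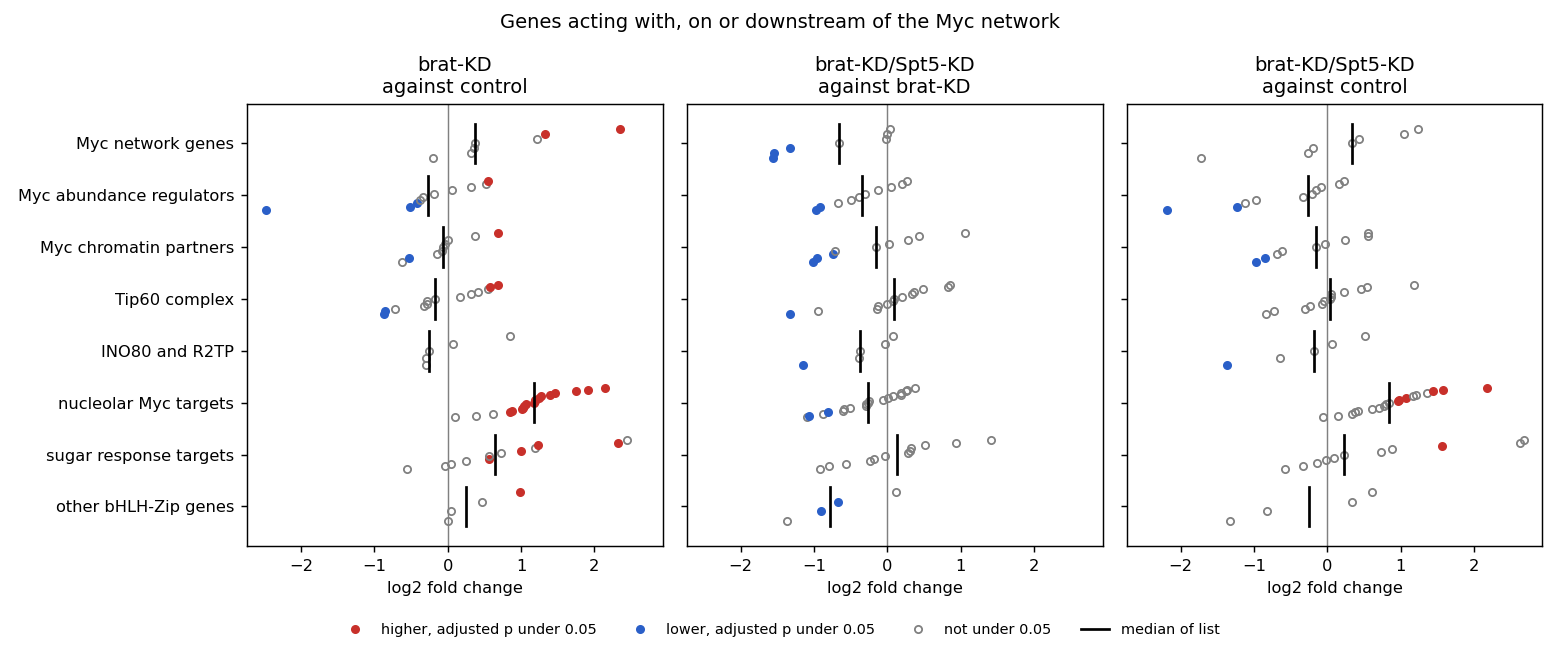
Log2 fold changes (horizontal axes) of the network and of the 7 lists in the 3 comparisons, with 1 point per gene tested and a bar at the median of each list. Red and blue points passed an adjusted p of 0.05. The nucleolar list has 16 of 19 genes higher in the left panel, 2 lower in the middle panel and 6 higher in the right panel. The same held for 13.8%, 5.71% and 3.97% of all genes tested.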

How the data were processed

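The authors deposited raw counts of reads per gene for 10 libraries (3, 4 and 3 per genotype), made from polyadenylated RNA in directional libraries with bowtie2 on BDGP6. The counting program and its annotation are not given in the sources used here, and the submitters' processing notes name edgeR 3.26.8 and FastQC. PCR cycles differed between libraries. Every column was mapped to a library by its label.

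Counts were fitted for each pair of genotypes with TMM, filterByExpr and the quasi-likelihood test in edgeR 4.0.16 (R 4.3.3), with Benjamini-Hochberg adjustment over all genes tested and a threshold of 0.05. A test on simulated data preceded the fits. CPM used TMM factors over all 10 libraries. Ratios had 0.5 added to each count for the log2 means and were compared with exact two-sided permutation tests. Intervals are exact binomial intervals at 95% and cover counting error only, since PCR reads without molecular identifiers are not independent molecules. Of the 17676 genes, 17549 were found in Ensembl release 115 (BDGP6.54), which gave positions and exon lengths. The other 127 held 0.616% to 0.905% of a library's counts. Ino80 of the INO80 list was not analysed here. As bowtie2 does not split reads over introns, levels per kb are approximate.

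The members and the lists were chosen with earlier results of these data known. Genes named are the 7 members, brat and Spt5, genes that overlap a member, the 5 genes most like Myc, and, of each list and comparison, at most 3 called genes in each direction with the largest change. Where fewer list genes are named, the rest are in the counts. The alternatives were DESeq2 1.42.0 or only its size factors, scaling by total counts, every gene kept, a minimum of 10 counts per library, 1 fit over the 3 genotypes, a block for the replicate number, and leaving out single libraries. Leaving out both replicates 1 in the comparison of the double-labelled libraries with the control was chosen after seeing the data.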

Additional observations from a re-analysis of the deposited data

Results flagged for a closer look

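Myc in Brat-depleted NB II had 1 library far from the others. Replicate 1 was at 567.4 CPM and replicates 2, 3 and 4 were at 389.9, 417.7 and 411.1 CPM. The gap to the nearest library was 0.844 of the whole range, above the limit that Dixon's test sets for 4 samples. The other 6 genes had no such library in this genotype, the only group large enough for the rule, and chance alone gives about 1 such result in 20 groups. Without this library Myc was 2.21 higher than the control on the log2 scale and still passed the test.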

How the results depend on the processing

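Between Brat-depleted and control NB II, Myc kept its direction and passed under all 14 alternatives (log2 fold change 2.21 to 2.45, the range without 1 library), and the number of members called stayed at 2 or 3. bigmax passed with no filter (1.21) and pont with DESeq2 (0.37). Between the double-labelled libraries and Brat-depleted NB II, 1 to 3 members were called without 1 library, and Myc lay between −1.65 and −1.08. Against the control, 2 members were called with DESeq2, 1 with at least 10 counts in every library, 2 with all 3 genotypes in 1 fit, 0 to 2 without 1 library, and 2 without both replicates 1. Myc there was 1.02 with DESeq2 (adjusted p = 0.029), 1.04 with all 3 genotypes in 1 fit in edgeR (adjusted p = 0.020), 1.07 without both replicates 1 (adjusted p = 0.0095), and 0.73 to 1.29 without 1 library. Mnt passed against the control in the same alternatives and with at least 10 counts. For the passes with DESeq2, the cause was not tested.

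Changes near 0 that turned sign were those of bigmax between the double-labelled libraries and Brat-depleted NB II (0.018 with DESeq2 and with its size factors, 0.012 with total counts, 0.015 with at least 10 counts, 0.0066 with all 3 genotypes in 1 fit, −0.24 to 0.19 without 1 library), rept (0.015, 0.014, 0.011 with at least 10 counts, 0.0083, and −0.22 to 0.0838) and pont (−0.029 to 0.13 without 1 library). Max against the control turned to 0.0885 without both replicates 1 (−0.54 to 0.04 without 1 library). The difference in mean log2 ratio ran from −0.26 to 0.41 for Myc to Mnt and from −0.20 to 0.57 for Myc to Mondo against Brat-depleted NB II, and from −1.12 to 0.13 for Myc to bigmax against the control, without 1 library.

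Deviations from the group mean correlated at −0.02 to 0.15 between same-numbered libraries and at −0.16 to 0.14 between differently numbered ones. Between the double-labelled libraries and the control, the same-numbered pairs were at 0.129, 0.146 and 0.047. Whether libraries of the same number share a batch cannot be told from these values. With the replicate number as a block, 0 members passed between the double-labelled libraries and Brat-depleted NB II (Myc −1.41, adjusted p = 0.131 in edgeR), in a fit that called 1 gene of the whole table. Over the whole table, calls between Brat-depleted and control NB II went from 2467 to 1250 with all 3 genotypes in 1 fit. Those between the double-labelled libraries and Brat-depleted NB II went from 1017 to 1648 with DESeq2 and to between 334 and 2408 without 1 library, and those against the control from 620 to 1347 with DESeq2, 1450 with all 3 genotypes in 1 fit, 232 with the block, 2513 without both replicates 1 and 64 to 1504 without 1 library. Depth was low for Mnt and Mondo in the double-labelled libraries, at 39 to 60 and 57 to 161 counts, and for bigmax in control replicate 1, at 24 counts.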
